A study of Mus musculus with 24 samples.

Results

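The serotonin receptors examined here were 10 genes of the mouse, Htr1a, Htr1b, Htr1d, Htr5a, Htr5b, Htr2a, Htr2c, Htr4, Htr7 and Htr3a, taken from a hippocampal count table of 55471 genes by their Ensembl identifiers. All 10 were found in the table. The study examined what the loss of the lysine acetyltransferase CBP, encoded by Crebbp, does to gene expression in the adult brain and to the response to an enriched environment. Bulk RNA-seq was made from the hippocampus of 12 female mice, with 3 mice in each of 4 groups, and the 2 sequencing runs of each mouse were merged before counting.

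All groups were C57BL/6 mice, of the substrain C57BL/6J by the study's methods, aged 3 to 6 months, and all received tamoxifen. CBP-ifKOs carried floxed Crebbp together with a CreERT2 recombinase under the Camk2a promoter, which is active in excitatory neurons of the forebrain, and expressed a truncated CBP without acetyltransferase activity after recombination. Controls were littermates without CreERT2, so that the loss of CBP and the presence of CreERT2 cannot be told apart. Control SC and CBP-ifKO SC mice lived in standard cages (SC), and control EE and CBP-ifKO EE mice lived for a month in large boxes of environmental enrichment (EE).

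Serotonin reaches the hippocampus through axons of the raphe nuclei and acts there on a family of receptors with opposed effects. Most are coupled to G proteins. Those coupled to Gi/o lower cAMP and open potassium channels, those coupled to Gq activate phospholipase C, and those coupled to Gs raise cAMP, whereas the receptor built from Htr3a is a cation channel gated by serotonin itself. CBP is a coactivator of CREB, the transcription factor that cAMP and calcium signaling activate.

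The promoters of Htr1a and Htr2a, which were lower in CBP-ifKOs, and of Htr5a, which was not, are shown with the GC box marked. Htr5a holds no GC box. None of the 3 holds TGACG, the core of the cAMP response element that CREB is known to bind. The sequences come from RefSeq on GRCm38.p6 and run up to the annotated start, ending earlier where GENCODE places the first exon further upstream. All 3 lie on the plus strand, at chr13:105443443-105443638 for Htr1a, chr14:74640624-74640839 for Htr2a and chr5:27841697-27841946 for Htr5a. Capitals mark the GC box GGGCGG or its reverse complement CCGCCC.
Htr1a: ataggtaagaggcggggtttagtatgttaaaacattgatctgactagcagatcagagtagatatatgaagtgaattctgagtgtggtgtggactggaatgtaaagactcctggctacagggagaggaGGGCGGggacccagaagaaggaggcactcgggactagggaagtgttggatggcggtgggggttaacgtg
Htr2a: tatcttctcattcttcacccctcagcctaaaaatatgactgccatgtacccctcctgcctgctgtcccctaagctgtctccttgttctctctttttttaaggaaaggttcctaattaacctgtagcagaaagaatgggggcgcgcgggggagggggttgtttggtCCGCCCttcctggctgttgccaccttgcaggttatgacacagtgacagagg
Htr5a: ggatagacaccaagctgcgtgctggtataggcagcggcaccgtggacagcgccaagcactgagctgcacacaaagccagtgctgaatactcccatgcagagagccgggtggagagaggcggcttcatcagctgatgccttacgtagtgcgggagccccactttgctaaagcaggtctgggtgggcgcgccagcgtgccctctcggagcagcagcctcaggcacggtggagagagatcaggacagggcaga

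Promoter windows of 250 bases before the RefSeq start were found for 7 of the 10 receptors, and each motif was searched on both strands. The full cAMP response element TGACGTCA was in 0 of these 7 genes and in 1.55% of the 32851 windows of all genes. Its core TGACG, which the full element contains, was in 1 of the 7, Htr7, at 87 bases before the start, and in 17.8% of all windows. The GC box was in 3 of the 7 and in 32.7% of all windows. It lay 123 bases before the start of Htr1a and 85 bases before that of Htr2a, and the third gene was Htr1d. A match is a description of these letters and not a site of binding.

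The labels were checked first. Crebbp was at 73.9, 81.9 and 70.7 CPM in control SC mice (counts scaled to the normalized library total) and at 50.6, 51.6 and 50.0 CPM in CBP-ifKO SC mice. In EE it was at 72.3, 77.1 and 69.6 CPM in controls and at 44.5, 48.3 and 46.7 CPM in CBP-ifKOs. The genotypes did not overlap, and the log2 change was -0.58 ± 0.0645 (SE) in SC and -0.64 ± 0.0631 (SE) in EE (adjusted p = 5.42e-04 and 4.07e-04, edgeR quasi-likelihood test with Benjamini-Hochberg adjustment over all genes). The counts cover all exons of Crebbp, of which the deleted part is a fraction.

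Library totals lay between 26874015 and 27971488 counts in controls and between 28582210 and 37448388 counts in CBP-ifKOs. All counts in the CBP-ifKO libraries were even numbers, whereas between 54.0% and 55.1% of the nonzero counts of a control library were odd. Whether reads were counted more than once in the CBP-ifKO libraries was not tested, so that their totals and counts may overstate the reads behind them, whereas a factor common to a library cancels in CPM and RPKM. When the CBP-ifKO counts were halved, no receptor gained or lost a call in any comparison. Library control EE 1 stood apart, with a summed level of 7 choroid plexus markers of 1259.9 CPM against 36.6 to 65.9 CPM in the other 11. Markers of CA1 pyramidal neurons were lower in CBP-ifKOs, with summed levels of 640.2 to 738 CPM in control SC against 499.9 to 523 CPM in CBP-ifKO SC and of 652 to 732 CPM in control EE against 474 to 486 CPM in CBP-ifKO EE. Of the 5, 3 were called lower in each housing (Wfs1, Fibcd1 and Mpped1), where 4.02% of all genes tested were called lower in SC and 3.53% in EE. In these bulk samples, fewer cells of a type and less RNA per cell cannot be told apart. Over both housings, 3 of 4 CA3 markers were called lower, and of 5 dentate granule markers 3 were lower and 1 higher, where 10.3% of all genes tested were called lower and 6.64% higher. Sums of astrocyte and microglia markers did not overlap between the genotypes within a housing, whereas those of oligodendrocyte markers did, at 3201 to 4343 CPM in control SC, 3480.04 to 4075 in CBP-ifKO SC, 3432 to 4559 in control EE and 3415 to 4239 CPM in CBP-ifKO EE. Astrocyte markers summed to 1221 to 1388 CPM in control SC against 1175 to 1203 in CBP-ifKO SC and to 1205 to 1277 CPM in control EE against 1080.1 to 1135 in CBP-ifKO EE, and microglia markers to 223 to 228 against 199.7 to 221 CPM and to 211 to 228 against 191 to 197 CPM. Over both housings 1 of 4 astrocyte markers (Slc1a3), 2 of 4 microglia markers (Cx3cr1 and Csf1r) and 1 of 5 thalamus markers (Prkcd) were called lower, and 0 of 4 oligodendrocyte and 0 of 3 endothelium markers were called. Slc1a3 was the largest part of the astrocyte sum, at 714 to 878 CPM in control SC and 690 to 710 CPM in CBP-ifKO SC. Aldh1l1, another astrocyte marker, was at 39.1 to 46.3 and 43.2 to 49.2 CPM in these groups. The part of these marker levels in the receptor changes was not tested. The 4 excitatory neuron markers were abundant in all groups, between 5626 and 6894 CPM in sum. Over both housings 2 of them were called lower, Nrgn (log2 change -0.52) and Neurod6 (-0.17), and Nrgn was called lower in each housing too.

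Of the 10 receptors, 9 were well counted and Htr1d was nearly absent. Across the 12 libraries the deposited counts ran from 128 for Htr5b to 2774 for Htr2c, both in CBP-ifKO libraries with even counts only, while Htr1d had between 0 and 7 counts. In control SC mice, the level per length of transcript was highest for Htr1a, at 10.003 ± 0.816 RPKM (reads per kilobase of exon, scaled to library size like CPM, SD, n = 3). Htr2c and Htr3a followed at 7.10 ± 0.401 and 7.08 ± 0.278 RPKM, and the mice of these 2 genes overlapped. Htr1a did not overlap with them.

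Htr5b came next with 4.20 ± 0.631 RPKM in control SC mice, followed by Htr7 with 3.67 ± 0.293, Htr2a with 3.16 ± 0.432 and Htr5a with 3.13 ± 0.100 RPKM. Each of these genes overlapped with its neighbor in the order. Below them were Htr4 at 2.94 ± 0.0600 RPKM and Htr1b at 2.71 ± 0.147 RPKM, whose values were separate from each other and from those of Htr5a. Htr1d was at 0.0423 ± 0.0354 RPKM, with 11 counts over the 3 libraries, where a floor of 3 counts per library corresponds to 0.0340 to 0.0354 RPKM. Its means in the other groups were 0.0193 RPKM in control EE, 0.0219 RPKM in CBP-ifKO EE and 0.00721 RPKM in CBP-ifKO SC, each under the floor of its own libraries, and a difference between groups was not detectable at this depth.

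The order at the top was narrower in CBP-ifKOs. In CBP-ifKO SC mice Htr1a was at 6.77 ± 1.14 RPKM and overlapped with Htr2c at 6.46 ± 1.23 RPKM, and in CBP-ifKO EE mice Htr2c had the highest mean, at 6.17 ± 1.21 RPKM, with Htr1a at 5.87 ± 0.604 RPKM and an overlap between them. In control EE mice Htr1a was at 8.60 ± 0.160 RPKM and Htr2c at 7.22 ± 1.53 RPKM, also with an overlap. Htr5b moved most in rank, from rank 4 in control SC to rank 9 in CBP-ifKO SC at 2.23 ± 0.231 RPKM, where it overlapped with Htr1b at 2.32 ± 0.294 RPKM.

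**Figure D1:**
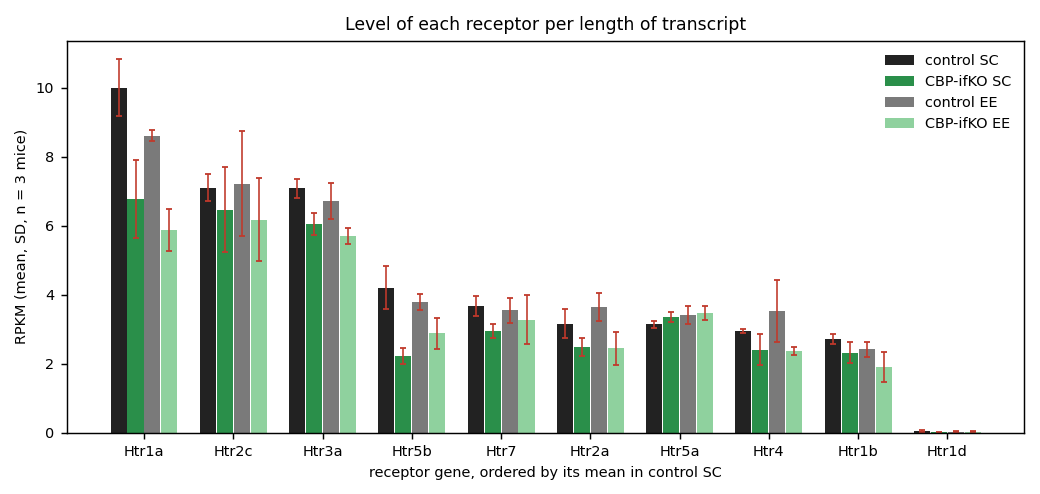
Level of each receptor per length of transcript in RPKM (vertical axis), ordered by the mean in control SC. Bars are means of 3 mice and error bars are SD. Htr1a leads in control SC at 10.003 RPKM, whereas Htr1a, Htr2c and Htr3a lie close together in both CBP-ifKO groups and Htr1d is near 0 in all.

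Summed over the 10 receptors, the level was 44.0 ± 1.28 RPKM in control SC and 35.0 ± 0.644 RPKM in CBP-ifKO SC mice. In EE the sums were 42.9 ± 2.44 RPKM in controls and 34.1 ± 3.44 RPKM in CBP-ifKOs (SD, n = 3). The lowest control was at 40.1 RPKM and the highest CBP-ifKO at 37.8 RPKM, so that the sums of the genotypes did not overlap in either housing. The makeup by coupling moved little. Receptors coupled to Gi/o made up 45.6% ± 0.835 of the sum in control SC, 42.0% ± 3.98 in CBP-ifKO SC, 42.6% ± 2.70 in control EE and 41.5% ± 1.01 in CBP-ifKO EE, and those coupled to Gq, to Gs and the channel had means of 23.3% to 25.5%, 15.01% to 16.5% and 15.6% to 17.3% over the 4 groups.

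The genotypes were compared in each housing and, for the largest number of mice, as the mean over both. In SC, 2 of the 9 receptors that passed the expression filter were lower in CBP-ifKOs, Htr1a and Htr5b, and 0 were higher (edgeR quasi-likelihood test, adjusted p below 0.05), where 4.02% of the 17532 genes tested were called lower and 1.51% higher. In EE, 2 were lower, Htr1a and Htr2a, where 3.53% of 17625 genes were called lower and 1.03% higher. Over both housings, 5 of 9 were lower, Htr1a, Htr5b, Htr2a, Htr4 and Htr3a, and 0 were higher, where 10.3% of 18251 genes were called lower and 6.64% higher. The median log2 change of the 9 receptors was -0.29 in SC, -0.34 in EE and -0.29 over both, beside medians of -0.0019, 0.014 and 0.0029 over all genes tested. DESeq2 called the same 2 receptors in SC, added Htr4 in EE and added Htr1b over both. Without control EE 1, Htr4 was called as well in EE, and the 5 called over both housings were the same.

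**Figure D2:**
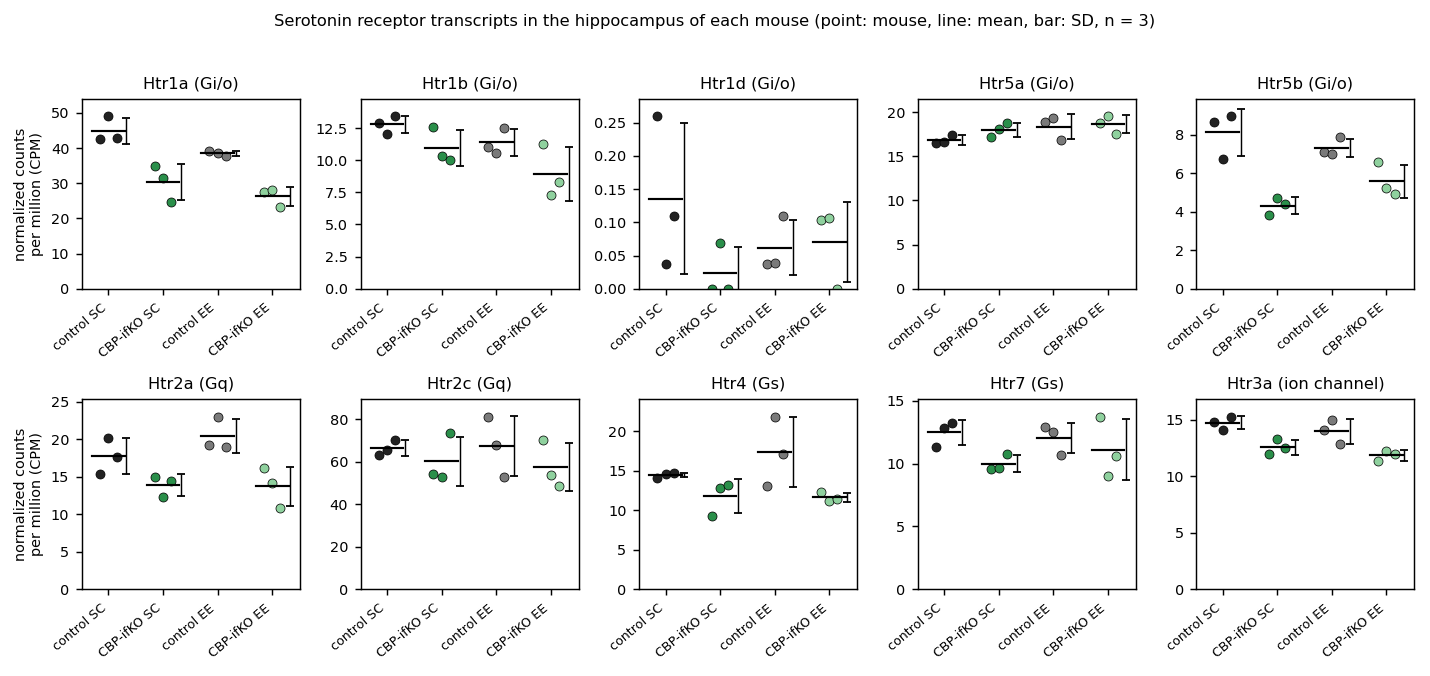
Normalized level in CPM of each receptor in each mouse (vertical axes start at 0), by group. Points are mice, lines are means and bars are SD of 3 mice. The genotypes are separate over all 12 mice for Htr1a and Htr5b, and within each housing for Htr2a, Htr4 and Htr3a, while Htr5a is level across the groups. The share of all genes separated in this way was not counted. By edgeR, Htr2a was not called in SC, and Htr4 and Htr3a were called in neither housing alone.

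Among the receptors coupled to Gi/o, Htr1a (ENSMUSG00000021721, chromosome 13:105443639-105448122 on GRCm38, plus strand, a gene of 1 exon) was lower in CBP-ifKOs in both housings. It is the main inhibitory serotonin receptor of pyramidal neurons and the autoreceptor of raphe neurons. Control SC mice had 42.6, 49.1 and 42.9 CPM and CBP-ifKO SC mice 34.8, 31.5 and 24.8 CPM. Control EE mice had 39.2, 38.7 and 37.8 CPM and CBP-ifKO EE mice 27.5, 28.2 and 23.2 CPM. Every CBP-ifKO was below every control over the 12 mice. The log2 change was -0.57 ± 0.110 (SE) in SC, -0.54 ± 0.0816 in EE and -0.56 ± 0.0747 over both (edgeR adjusted p = 0.0122, 0.00464 and 1.13e-04), and all 3 calls were kept in every alternative run.

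Htr5b (ENSMUSG00000050534, chromosome 1:121509842-121528465, minus strand) had the largest fall of the receptors in SC. It encodes a receptor of the same inhibitory class and is a pseudogene in humans. Control SC mice had 8.69, 6.72 and 8.97 CPM and CBP-ifKO SC mice 3.83, 4.71 and 4.40 CPM. In EE, controls had 7.13, 6.99 and 7.86 CPM and CBP-ifKOs 6.56, 5.23 and 4.93 CPM. The genotypes did not overlap over the 12 mice, although the gap was narrower in EE. The log2 change was -0.92 ± 0.148 (SE) in SC (edgeR adjusted p = 0.00482), -0.38 ± 0.145 in EE (adjusted p = 0.167) and -0.65 ± 0.103 over both (adjusted p = 4.38e-04). Htr5b is also known from the medial habenula, which lies near the dissected tissue. Of the 6 habenula markers listed, Nwd2 was at 31.3 to 51.6 CPM over the 12 libraries, whereas 3 others were low, with Pou4f1 at 0 to 0.0772 CPM, Chrnb4 at 0.0598 to 0.661 CPM and Gpr151 at 0.689 to 1.60 CPM. The 6 summed to 44.1 to 57.9 CPM in control SC, 39.4 to 44.2 in CBP-ifKO SC, 48.2 to 50.3 in control EE and 37.01 to 38.7 CPM in CBP-ifKO EE, with Nwd2 the largest part. Over both housings 2 of the 4 tested were called lower, Nwd2 (log2 change -0.31) and Chrna3 (-0.66), beside 10.3% of all genes tested. The part of habenular tissue in the level of Htr5b was not tested.

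Its relative Htr5a (ENSMUSG00000039106, chromosome 5:27842149-27855088, plus strand) was level. Control SC mice had 16.5, 16.6 and 17.5 CPM, CBP-ifKO SC mice 17.2, 18.1 and 18.8 CPM, control EE mice 18.9, 19.4 and 16.8 CPM and CBP-ifKO EE mice 18.8, 19.5 and 17.5 CPM. The groups overlapped in each of the genotype and housing comparisons. Its log2 change over both housings was 0.06 ± 0.0558 (SE), with an approximate 95% interval from -0.05 to 0.17 (edgeR adjusted p = 0.525), and 0.03 to 0.08 when a mouse was left out. The share of Htr5a in the summed RPKM was 7.11% ± 0.118 in control SC and 9.57% ± 0.283 in CBP-ifKO SC, and 7.96% ± 0.156 in control EE and 10.2% ± 0.865 in CBP-ifKO EE. The ratio of Htr5b to Htr5a in RPKM was 1.34 ± 0.185 in control SC, 0.664 ± 0.0519 in CBP-ifKO SC, 1.117 ± 0.162 in control EE and 0.832 ± 0.120 in CBP-ifKO EE (SD, n = 3), above 1 in each control and below 1 in each CBP-ifKO.

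Htr1b (ENSMUSG00000049511, chromosome 9:81628291-81633828, minus strand), a receptor of axon terminals that restrains transmitter release, was not called. It had 12.9, 12.1 and 13.4 CPM in control SC, 12.6, 10.3 and 10.01 in CBP-ifKO SC, 11.1, 10.6 and 12.5 in control EE and 11.3, 7.26 and 8.28 CPM in CBP-ifKO EE. The groups overlapped in both housings, with the first CBP-ifKO library of each housing the highest among the CBP-ifKOs. The log2 change over both was -0.29 ± 0.101 (SE, edgeR adjusted p = 0.0644), and it was called with DESeq2 (adjusted p = 0.0453) and without CBP-ifKO SC 1 (0.0425) or CBP-ifKO EE 1 (0.00596). The gene shares 852 exonic bases with D430036J16Rik on the opposite strand, and whether the counting used strand is not given in the sources used here, so the reads of the pair may not be separate. No other receptor shares exonic bases with another gene.

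Of the receptors coupled to Gq, Htr2a (ENSMUSG00000034997, chromosome 14:74640840-74709494, plus strand), the excitatory receptor that classical hallucinogens activate, was lower over both housings. Control SC mice had 15.3, 20.2 and 17.6 CPM and CBP-ifKO SC mice 15.005, 12.3 and 14.5 CPM. Control EE mice had 19.3, 23.0 and 18.98 CPM and CBP-ifKO EE mice 16.1, 14.1 and 10.9 CPM. The genotypes were separate within each housing, by little in SC. The log2 change was -0.35 ± 0.114 (SE) in SC (edgeR adjusted p = 0.105), -0.56 ± 0.136 in EE (adjusted p = 0.0396) and -0.46 ± 0.0970 over both (adjusted p = 0.00403). The call in EE was lost without control EE 2 (adjusted p = 0.0891), control EE 3 (0.0894), CBP-ifKO EE 2 (0.101) or CBP-ifKO EE 3 (0.118), and the call over both housings was kept without any mouse.

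Htr2c (ENSMUSG00000041380, chromosome X:146962513-147197277, plus strand) had the most counts and, in CPM, the widest range over the 12 mice. Its transcript is known for its abundance in the choroid plexus. It had 63.0, 65.5 and 70.3 CPM in control SC, 54.2, 53.0 and 73.5 in CBP-ifKO SC, 81.2, 68.1 and 52.7 in control EE and 70.2, 53.7 and 48.7 CPM in CBP-ifKO EE. The groups overlapped in each comparison. The log2 change over both housings was -0.18 ± 0.109 (SE, edgeR adjusted p = 0.290), which ran from -0.10 without control EE 1 (adjusted p = 0.582) to -0.27 without CBP-ifKO SC 3 or CBP-ifKO EE 1. The change in EE was -0.22 with all 6 mice, -0.06 without control EE 1, -0.11 without CBP-ifKO EE 3, -0.36 without control EE 3 and -0.39 without CBP-ifKO EE 1, and was called in none of these.

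That library, which had the highest Htr2c, also had 1129 CPM of Ttr, a choroid plexus transcript, against 4.06 to 32.3 CPM in the others. Ttr itself was lower in CBP-ifKO SC mice, at 6.02 to 7.73 CPM against 20.7 to 26.1 CPM in control SC (log2 change -1.70 ± 0.119, SE, edgeR adjusted p = 2.2e-05). It was the 1 marker called of the 5 choroid plexus markers tested in SC, of 7 listed. Clic6 (log2 change -1.10, edgeR adjusted p = 0.0949), Sostdc1 (-0.35) and Folr1 (-0.28) were lower too but not called. Only Kl was higher, at 25.9 to 28.8 CPM in CBP-ifKO SC against 21.8 to 25.1 CPM in control SC (log2 change 0.22, edgeR adjusted p = 0.141). The 7 summed to 50.0 to 55.6 CPM in control SC and 36.7 to 41.5 CPM in CBP-ifKO SC. The next highest levels of Htr2c, in CBP-ifKO SC 3, control SC 3 and CBP-ifKO EE 1, came with 7.73, 20.7 and 32.3 CPM of Ttr. Dcn, a marker of ventral CA1, varied among these mice in another way. It was at 67.2, 102 and 103 CPM in control SC, 54.3, 47.6 and 83.9 in CBP-ifKO SC, 77.5, 82.7 and 64.8 in control EE and 96.01, 40.3 and 44.1 CPM in CBP-ifKO EE. The library with the highest Dcn of its group also had the highest Htr2c in 3 of the 4 groups, and so it did for Htr7 and Htr5a. The count was 4 for Htr4, 2 each for Htr1b, Htr5b, Htr2a and Htr3a, and 0 for Htr1a and Htr1d. The library with the lowest Dcn gave another order. It also had the lowest level in 3 groups for Htr2c, Htr7 and Htr2a, and in 2 for Htr1a, Htr4 and Htr5a. That count was 1 for Htr1b and Htr3a, and 0 for Htr5b and Htr1d. Such matches were not counted over all genes. The part of choroid plexus or of the dissected position along the hippocampus in these levels was not tested.

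**Figure D3:**
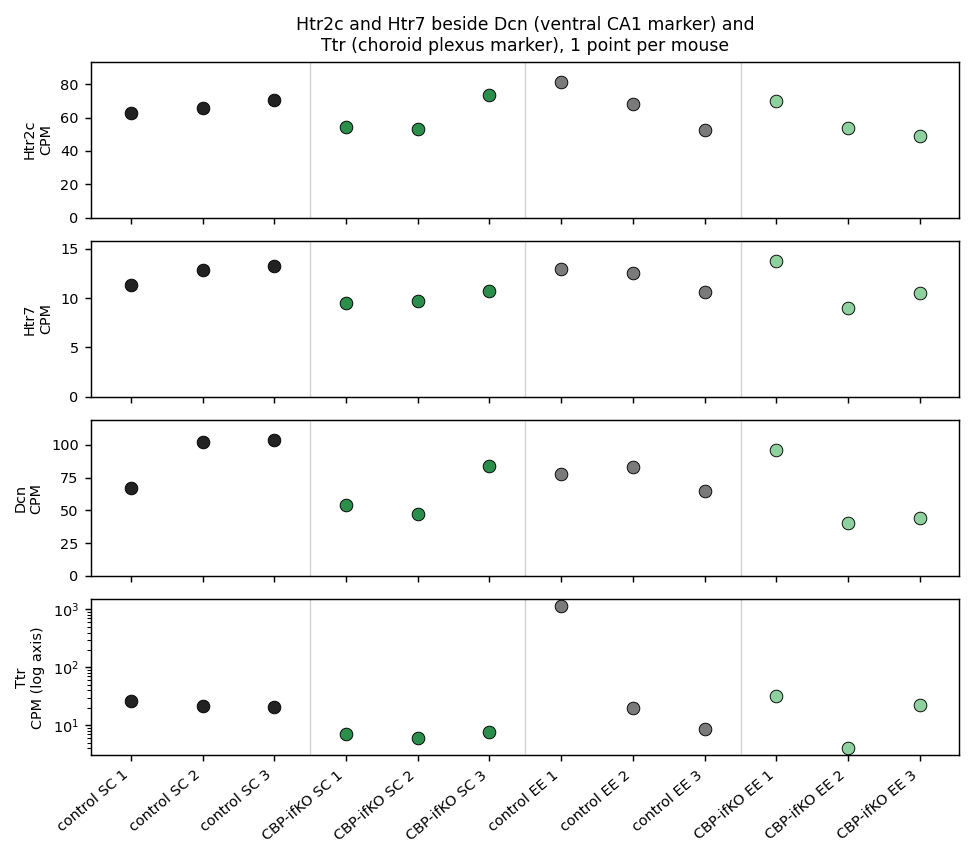
Levels in CPM of Htr2c, Htr7, Dcn and Ttr in each of the 12 libraries, with a log axis for Ttr. Control EE 1 has 1129 CPM of Ttr and the highest Htr2c at 81.2 CPM, and the high values of Htr2c and Htr7 in CBP-ifKO SC 3 and CBP-ifKO EE 1 coincide with the highest Dcn of those groups.

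Both receptors coupled to Gs were examined next. Htr4 (ENSMUSG00000026322, chromosome 18:62324204-62496577, plus strand), an excitatory receptor that promotes cAMP signaling in hippocampal neurons, had 14.1, 14.5 and 14.7 CPM in control SC and 9.27, 12.8 and 13.2 CPM in CBP-ifKO SC mice. In EE it had 13.01, 21.9 and 17.1 CPM in controls and 12.3, 11.2 and 11.5 CPM in CBP-ifKOs. The genotypes were separate within each housing, but the lowest control EE mouse was below the highest CBP-ifKO SC mouse. The log2 change was -0.29 ± 0.126 (SE) in SC (edgeR adjusted p = 0.208), -0.56 ± 0.155 in EE (adjusted p = 0.0675) and -0.43 ± 0.110 over both (adjusted p = 0.0130), the last of which was kept in every alternative. In EE it was called without control EE 1 (adjusted p = 0.00629), with DESeq2 (0.00612), in the fit of all 12 mice (0.0370), with a replicate block (0.0412) and without a filter on low counts (2.96e-05). It was not called without any other single mouse, with adjusted p-values up to 0.199 and a log2 change of -0.37 without control EE 2. In SC the change was -0.15 without CBP-ifKO SC 1.

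Htr7 (ENSMUSG00000024798, chromosome 19:35958734-36057507, minus strand) had 11.4, 12.8 and 13.2 CPM in control SC and 9.56, 9.69 and 10.8 CPM in CBP-ifKO SC, which did not overlap. In EE, controls had 12.9, 12.5 and 10.7 CPM and CBP-ifKOs 13.7, 9.02 and 10.6 CPM, with the highest and the lowest value both among CBP-ifKOs. The log2 change was -0.32 in SC (edgeR adjusted p = 0.0970), -0.10 in EE (adjusted p = 0.757) and -0.22 ± 0.0954 (SE) over both (adjusted p = 0.140), and without CBP-ifKO EE 1 the last became -0.31 (adjusted p = 0.0183). Without any other single mouse it was not called, at -0.26 to -0.15 with adjusted p-values up to 0.288. The change in EE ran from -0.29 without CBP-ifKO EE 1 to 0.02 without CBP-ifKO EE 2.

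The channel subunit Htr3a (ENSMUSG00000032269, chromosome 9:48899213-48911099, minus strand) is known from a class of hippocampal interneurons and not from the excitatory neurons in which the Camk2a promoter is active. Control SC mice had 14.8, 14.1 and 15.3 CPM and CBP-ifKO SC mice 11.96, 13.3 and 12.5 CPM. Control EE mice had 14.1, 15.02 and 12.8 CPM and CBP-ifKO EE mice 11.3, 12.3 and 11.98 CPM. The genotypes were separate within each housing by a small margin. The log2 change was -0.23 in SC and in EE (edgeR adjusted p = 0.159 and 0.217) and -0.23 ± 0.0610 (SE) over both (adjusted p = 0.0150), a call that was kept in every alternative with a highest adjusted p of 0.0461. The 12 interneuron markers summed to 1512 to 1571 CPM in control SC, 1366 to 1420.4 in CBP-ifKO SC, 1531 to 1607 in control EE and 1390.1 to 1432 CPM in CBP-ifKO EE. Over both housings 10.3% of all genes tested were called lower and 6.64% higher. Of the 12 markers, 2 were called lower, Cck (log2 change -0.45) and Sst (-0.33), and 1 higher, Vip (0.21), with a median of -0.11. Their part in the level of Htr3a was not tested.

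**Figure D4:**
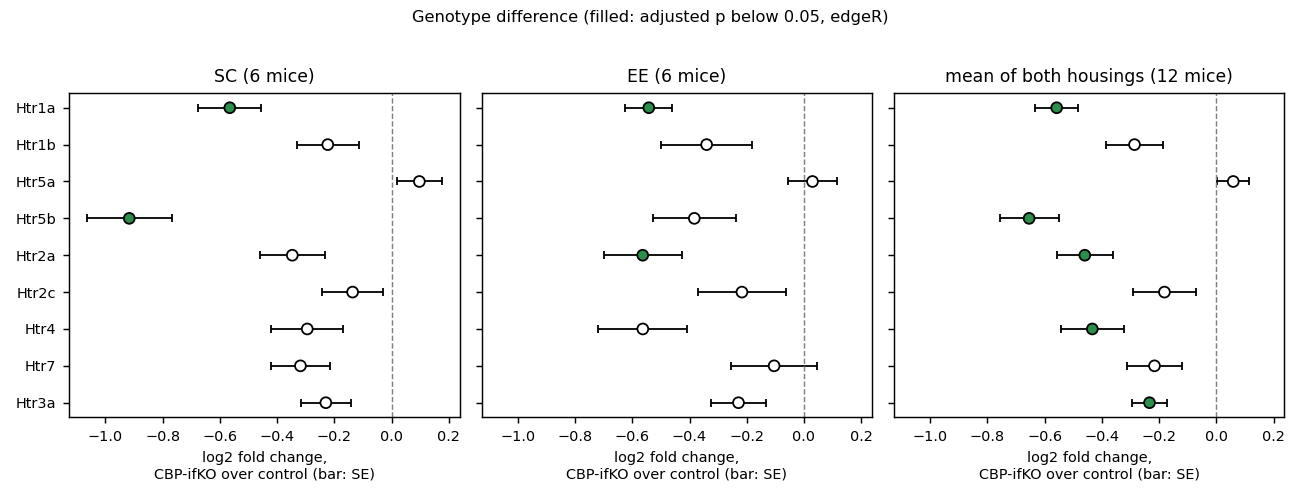
Log2 fold change of CBP-ifKO over control for the 9 receptors that passed the filter, in SC, in EE and over both housings. Points are estimates, bars are SE, and filled points have an edgeR adjusted p below 0.05. The estimates lie left of 0 in all comparisons for each receptor except Htr5a, which lies between 0.03 and 0.10.

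Housing was compared within each genotype in the fit of all 12 mice. In control mice 0 of the 9 receptors were called by edgeR (0% of all 18251 genes, with 768 at an unadjusted p under 0.05), and DESeq2 called 0 of the receptors too. In CBP-ifKOs 0 receptors were called by either tool (0.011% of genes by edgeR, with 1567 at an unadjusted p under 0.05). The median log2 change of the receptors was -0.05 in controls and -0.02 in CBP-ifKOs, beside 0.00096 and -0.0025 over all genes.

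Htr1a was the receptor with the smallest unadjusted p in controls. The 3 control EE mice, at 37.8 to 39.2 CPM, lay below the 3 control SC mice, at 42.6 to 49.1 CPM, and the log2 change was -0.22 ± 0.105 (SE, unadjusted p = 0.0557, edgeR adjusted p = 0.9994). In CBP-ifKOs it was -0.20 ± 0.106 with an overlap between the housings (adjusted p = 0.617), and ran from -0.09 without CBP-ifKO SC 1 and -0.12 without CBP-ifKO EE 3 to -0.33 without CBP-ifKO SC 3. The difference of both changes was 0.01, with an approximate 95% interval from -0.28 to 0.31. Htr4 and Htr2a had the largest positive estimates in controls, 0.26 ± 0.156 and 0.20 ± 0.137 (SE), with overlapping mice, and were at -0.02 in CBP-ifKOs. Both estimates depended on single mice too. The estimate of Htr4 in controls was 0.43 without control EE 1 (unadjusted p = 0.00708, edgeR adjusted p = 0.713) and 0.06 without control EE 2, and that of Htr2a ran from 0.11 without control EE 2 or control SC 1 to 0.31 without control SC 2.

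For Htr5b neither housing change passed the test. In controls the log2 change from SC to EE was -0.15 ± 0.143 (SE, edgeR adjusted p = 0.9994) and the housings overlapped, and in CBP-ifKOs it was 0.37 ± 0.147 (unadjusted p = 0.0218, edgeR adjusted p = 0.505), where the 3 EE mice at 4.93 to 6.56 CPM lay above the 3 SC mice at 3.83 to 4.71 CPM. Without single mice the change in controls ran from -0.27 (control SC 2) to -0.10 (control SC 1) and -0.07 (control SC 3), and that in CBP-ifKOs from 0.24 (CBP-ifKO EE 1) to 0.45 (CBP-ifKO EE 3). The interaction was 0.52 ± 0.205 (SE, unadjusted p = 0.0216, edgeR adjusted p = 0.9998). No receptor passed the test of the interaction (0% of all genes, with 574 at an unadjusted p under 0.05, and 0 receptors by DESeq2) or the joint test of environment and interaction (0.0712% of genes, with 1254 at an unadjusted p under 0.05, and 0 receptors by DESeq2). In the joint test Htr1a and Htr5b had unadjusted p-values of 0.0404 and 0.0456 (edgeR adjusted p = 0.696 and 0.713).

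**Figure D5:**
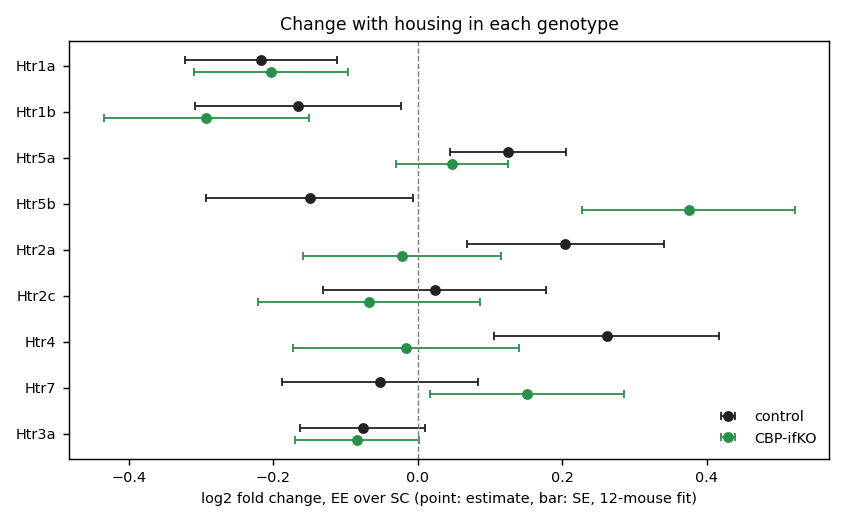
Log2 fold change of EE over SC within controls and within CBP-ifKOs for the 9 receptors, from the fit of all 12 mice. Points are estimates and bars are SE. Htr5b is at -0.15 in controls and 0.37 in CBP-ifKOs, and Htr1a is at -0.22 and -0.20.

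Outside the 10, 4 other serotonin receptor genes were read from the same fits. Htr6, a Gs-coupled receptor of the forebrain, had 4.49, 4.08 and 4.79 CPM in control SC, 3.53, 3.05 and 3.34 in CBP-ifKO SC, 4.56, 4.32 and 5.41 in control EE and 3.10, 4.06 and 2.58 CPM in CBP-ifKO EE. Its genotypes did not overlap, and its log2 change over both housings was -0.49 ± 0.119 (SE, edgeR adjusted p = 0.00985). Htr1f was tested and not called. It was at 0.668 to 1.13 CPM in control SC and, without overlap, at 1.17 to 1.45 CPM in CBP-ifKO SC (log2 change 0.46, edgeR adjusted p = 0.390). In EE the genotypes overlapped (log2 change -0.32), and over both housings the change was 0.06. Htr2b and Htr3b did not pass the filter.

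Of 7 genes that make, carry and break down serotonin, 6 passed the filter and 0 were called over both housings by edgeR, with 3 at an unadjusted p under 0.05 and 0 called by DESeq2. Their median log2 change was -0.08. The transporter gene Slc6a4, whose RNA is made in raphe neurons, did not pass the filter, at 0 to 0.117 CPM. Slc18a2, the vesicular monoamine transporter, had the smallest p over both housings, with a log2 change of -0.19 ± 0.0682 (SE, edgeR adjusted p = 0.0710).

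Of the 16 G protein and effector genes, all of which passed the filter, 4 were lower and 1 higher over both housings, beside 10.3% and 6.64% of all genes tested, with a median log2 change of -0.08. The lower genes were Gnao1, the main alpha subunit of Go (-0.15 ± 0.0388, SE), Gnaq, the alpha subunit of Gq (-0.23 ± 0.0426), Kcnj9, a subunit of the potassium channel that Gi/o opens (-0.19 ± 0.0527), and Adcy1, a calcium-sensitive adenylyl cyclase (-0.31 ± 0.0814), with edgeR adjusted p-values of 0.0128, 0.00160, 0.0212 and 0.0160. The higher gene was Gnal, an alpha subunit that stimulates adenylyl cyclase (0.14 ± 0.0461, adjusted p = 0.0452), whose call was lost in 11 of 18 alternatives, 9 of them without a single mouse. The call of Kcnj9 was lost in 5 of 18, each without a single mouse. In SC 0 of the 16 were called by edgeR, with 4 at an unadjusted p under 0.05 and 2 called by DESeq2 (Gnal and Gnaq). In EE Gnao1, Gnaq and Adcy1 were lower by edgeR, beside 3.53% of all genes tested, and DESeq2 called 4, with Kcnj9 added. The edgeR calls of Gnao1, Gnaq and Adcy1 in EE were lost without a single mouse in 5, 4 and 5 of 6 cases, that of Gnao1 also with a replicate block (adjusted p = 0.0538).

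Of 6 partners and regulators of receptors, 4 were lower over both housings, beside 10.3% of all genes tested, with a median log2 change of -0.24. Rgs4, which ends signaling by Gi/o and Gq, was lower in SC (-0.58 ± 0.0716, SE), in EE (-0.50 ± 0.0762) and over both (-0.54 ± 0.0547, edgeR adjusted p = 8.29e-06). Dlg4, the postsynaptic scaffold PSD-95 that binds Htr2a and Htr2c proteins, was lower in SC (-0.32 ± 0.0490), in EE (-0.38 ± 0.0564) and over both (-0.35 ± 0.0342, adjusted p = 5.77e-06). S100a10, also called p11, which takes receptors of Htr1b and Htr4 to the cell surface, was lower over both (-0.55 ± 0.0965, adjusted p = 0.00106) and in SC (-0.60 ± 0.121, adjusted p = 0.0154), and was at -0.49 ± 0.139 in EE (adjusted p = 0.0723), where DESeq2 called it. Its call in SC was lost without control SC 3 (adjusted p = 0.0645) or CBP-ifKO SC 1 (0.0534). Arrb1 was lower over both housings (-0.13 ± 0.0433, adjusted p = 0.0448), a call that was lost in 8 of 18 alternatives. For the housing changes, the interaction and the joint test, 0 genes of these lists were called by edgeR or by DESeq2, with at most 3 of a list at an unadjusted p under 0.05.

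The genes whose log2 CPM followed a called receptor most closely over the 12 mice are given as a description. The points share their libraries and include both genotypes, so that any gene lower in CBP-ifKOs scores high. For Htr1a they were Agap1 (Pearson r = 0.973), Rap1gap2 (0.959) and Zfp365 (0.953). For Htr5b they were Tpm1 (0.977), Ap1s1 (0.959) and Spink8 (0.958). For Htr2a they were Arnt2 (0.965), Gas7 (0.941) and Gm28578 (0.938), for Htr4 Slc39a11 (0.946), Atp6v1a (0.941) and Zfp804a (0.935), and for Htr3a Cpeb1 (0.982), Lhfpl2 (0.953) and Ccbe1 (0.952).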

How the data were processed

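Hippocampal RNA of 12 mice in 4 groups was sequenced as single-end reads in 2 runs per mouse. The authors trimmed the reads, aligned them to mm10 (GRCm38), kept well-mapped reads and assigned them to exons of an Ensembl annotation with Rsubread, and the submitters' processing notes name FastQC 0.11.8, Trim Galore 0.6.4, STAR 2.6.1 and DESeq2 1.30.1. What the authors deposited are unnormalized counts for each gene, the runs of a mouse merged, and the deposited table also lists each gene's length in bases, which was used for RPKM only. It equals the union of GENCODE exons for all 10 receptors.

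The counts were tested in R 4.3.3 with edgeR 4.0.16, using the expression filter, TMM and the quasi-likelihood F test, two-sided, and Benjamini-Hochberg adjustment over all genes tested at 0.05. CPM and RPKM use TMM totals, and log2 CPM a prior count of 2. Genotypes were compared in the 6 mice of each housing, and the mean over housings, the housing changes, the interaction and the joint test in all 12 mice. An approximate 95% interval is the estimate ± 1.96 SE. The floor of 3 counts covers only counting error.

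The procedure was tested on simulated data. The alternatives were DESeq2 1.42.0, its size factors, no filter on low counts, a filter of 1 CPM in 3 mice, CBP-ifKO counts halved, a block for the replicate number, fits of other mice, a test of 3 terms, plain library totals for the levels, and leaving out each mouse. The genes named are the 10 receptors, Crebbp, genes of the pathway lists that passed the test or, where none passed, had the smallest p, and the 3 genes most like each called receptor. Htr1f, Htr2b, Htr3b, Slc6a4, D430036J16Rik and all marker genes are named outside this rule and were chosen after their values were seen. The receptors and the lists were chosen with earlier results of these data known. Replicates are mice, as the labels number them. Positions come from GENCODE M21 (GRCm38) and promoters from RefSeq.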

Additional observations from a re-analysis of the deposited data

Results flagged for a closer look

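The change of Htr5b from SC to EE differed between the genotypes by 0.52 on the log2 scale (CBP-ifKO minus control, SE 0.205, n = 12 mice) in the interaction test of edgeR's quasi-likelihood fit, at an unadjusted p of 0.0216. It failed the adjustment over all genes (adjusted p = 0.9998). All 3 CBP-ifKO EE mice were above all 3 CBP-ifKO SC mice, while control mice of both housings overlapped. Leaving out each mouse in turn gave estimates from 0.39 to 0.64. Single outlying mice were not searched for, since each group holds 3 mice.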

How the results depend on the processing

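Over 63 tested changes of the receptors and 1098 alternatives, the 9 called changes kept their direction in all of their 142 alternatives and their call in 138. The 4 lost calls were those of Htr2a in EE without a single mouse, so that leaving out a mouse gave 1 to 3 receptors called in EE against 2 with all mice. Without a filter on low counts, 4 receptors were called in EE (Htr1a, Htr2a, Htr2c and Htr4), 3 in SC against 2, with Htr2a added, and 7 over both housings against 5, with Htr1b and Htr2c added. The joint test with 3 terms called 3 receptors (Htr1a, Htr5b and Htr2a) against 0 with 2 terms, and the term it adds is the genotype itself. Of 939 alternatives to changes that were called in neither setting, 31 had the opposite sign. Over all genes, the calls ran from 399 to 1908 in SC, against 968, and from 285 to 1016 in EE, against 805, when a mouse was left out. With the other settings they ran from 958 to 1512 in SC and from 815 to 1677 in EE. For the housing changes they ran from 0 to 145 in controls, against 0, and from 0 to 247 in CBP-ifKOs, against 2, and for the interaction from 0 to 110, against 0, each highest without a filter on low counts, while 0 receptors were called in any of these. For the joint test they ran from 6 to 1778, against 13, the highest with 3 terms. When a mouse was left out, they ran from 0 to 5 and from 0 to 10 for the housing changes in controls and CBP-ifKOs, were 0 for the interaction and ran from 0 to 16 for the joint test, which was 0 in the fits without any 1 of the CBP-ifKO SC mice, control EE 3 or CBP-ifKO EE 2.

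The replicate numbers do not mark a shared litter or day in the labels. Correlations of same-numbered libraries ran from -0.0675 to 0.305, not over 0.1 in every pair, so the numbers were not taken to pair the mice. As a hint from the data, all 6 EE libraries correlated best with their own number, against 1 to 4 of 6 between the other groups. With the number as a block, 2 receptors were called in SC, 3 in EE and 6 over both housings, against 2, 2 and 5 without it. Htr4 in EE had an adjusted p of 0.0412 and Htr1b over both housings of 0.0293, and among the other named genes the call of Gnao1 in EE was lost (0.0538). Among the 40 levels in RPKM, plain library totals moved 1 by more than its SD, that of Htr1a in control EE, from 8.60 to 8.38 RPKM, and the others by less. Depth limited Htr1d, at 0 to 7 counts.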
